A study of Mus musculus with 8 samples.

Results

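Classical monocyte genes are described here in mononuclear cells of mouse blood. They are the 10 genes Ly6c2, Csf1r, Ms4a6c, Fn1, Vcan, F13a1, Lyz2, Chil3, Hp and Mgst1. The genes were picked by name from a deposited count table of 56748 genes, in which all 10 had a row, and all 10 were among the 14723 genes with enough counts to be tested. All mice were male C57BL/6J, labelled wt, and 8 weeks old. The fucoidan group (n = 3 libraries) had 200 mg/kg of fucoidan from Undaria pinnatifida, a sulphated polysaccharide of a brown seaweed, by gavage every day for 1 month, and the saline group (n = 5 libraries) had saline in the same way. The titles and treatment fields place the libraries in these groups, whereas a protocol text repeated for all 8 libraries names saline. Both groups ate a standard diet, and blood was drawn by cardiac puncture and spun on a density gradient.

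Blood monocytes of the mouse fall into a classical subset, which carries much of the surface antigen Ly6C, leaves the bone marrow through the chemokine receptor CCR2 and enters inflamed tissue, and a nonclassical subset, which carries little Ly6C and patrols the vessel wall. Classical monocytes can turn into nonclassical ones in the blood, and both carry the growth factor receptor CSF1R. None of the 10 genes belongs to this subset alone. Neutrophils also make lysozyme, haptoglobin and the chitinase-like protein of Chil3, platelets hold the A subunit of factor XIII, and macrophages of tissues and body cavities make fibronectin.

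Fibronectin was the member that changed. Fn1, which encodes this glycoprotein of the extracellular matrix, fell to 0.404-fold with fucoidan, with no overlap between the groups. No other member passed the test, and Ly6c2, the gene that names the subset, stood at 0.949-fold. A library of the saline group, replicate 1, held the highest saline value of all 10 genes, and without it the log2 fold changes of Ly6c2 and Lyz2 changed sign.

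The 8 libraries held 13061703 to 16334932 counts each. Haemoglobin genes took 3.51 to 8.48% of the counts after saline and 13.5 to 24.1% after fucoidan, the highest share being that of fucoidan replicate 3. Values below are CPM, counts relative to library size, scaled by the trimmed mean of M values (TMM), which adjusts each library for such a shift in composition. A gene was called changed at a Benjamini-Hochberg adjusted p under 0.05 in edgeR's quasi-likelihood test over all 14723 genes. Of all tested genes, 4.65% were called lower and 9.11% higher with fucoidan, 13.8% in all. The labels call the libraries biological replicates. In these bulk libraries fewer cells of a type and less RNA per cell cannot be told apart.

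The label fits the marker levels in part. Ccr2 was measured at 110.9 to 360.5 CPM and Cd14, the co-receptor for endotoxin, at 22.8 to 55.8 CPM. RNA of both genes was thus present in every library, though these levels do not show which cells it came from. Neutrophil genes were present too: S100a8 and S100a9, the subunits of calprotectin, lay at 153.98 to 360.0 and 244.8 to 585.5 CPM. Mpo and Elane, granule genes of neutrophil precursors, stayed at or under 2.67 CPM in each library. Other granule genes of the neutrophil list reached higher levels. Over the 8 libraries Ltf ran from 2.48 to 26.8 CPM, Ngp from 3.60 to 28.1 CPM and Camp from 0.116 to 4.96 CPM. Ltf and Ngp were highest in saline replicate 1.

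Reads of some members can be mistaken for those of a relative, and the sequences show how far. Ly6c2 and Ly6c1 lie on chromosome 15. Their coding sequences, taken from the GENCODE M21 transcripts (GRCm38), are each 393 bases long and differ at 9 bases, an identity of 97.7%. Ly6c1 is the copy known from endothelium and T cells. The first 120 coding bases hold 6 of the differences, shown in capitals:
Ly6c2: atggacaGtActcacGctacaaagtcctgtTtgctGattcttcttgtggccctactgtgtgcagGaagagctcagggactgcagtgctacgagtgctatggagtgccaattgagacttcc
Ly6c1: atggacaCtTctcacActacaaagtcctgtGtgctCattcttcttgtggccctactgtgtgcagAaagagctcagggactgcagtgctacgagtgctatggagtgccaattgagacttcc
Lyz2 and Lyz1, the lysozymes of macrophages and of Paneth cells, lie side by side on chromosome 10 and differ at 22 of 444 coding bases. Coding bases 37 to 156 hold 14 of these, again in capitals:
Lyz2: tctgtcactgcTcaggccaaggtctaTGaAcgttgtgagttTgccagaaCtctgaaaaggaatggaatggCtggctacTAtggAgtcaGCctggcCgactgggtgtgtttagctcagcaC
Lyz1: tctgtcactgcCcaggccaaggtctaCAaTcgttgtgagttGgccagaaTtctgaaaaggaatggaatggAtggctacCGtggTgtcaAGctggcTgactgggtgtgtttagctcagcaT

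Despite the likeness, few stretches of read length were identical. Of 2737 windows of 150 bases in the Ly6c2 transcripts, 39 also occur in Ly6c1, or 1.42%, and 0 of the 1167 windows of Lyz2 occur in another gene. Ly6c1 was measured at 6.57 to 8.88 CPM, far under Ly6c2 in every library. The other members were free of such windows except Fn1 (0.646% of windows, shared with an overlapping noncoding gene that had 1 count), Csf1r and Ms4a6c. Of the windows of Csf1r 12.9% overlap Hmgxb3 on the other strand, a gene at 40.3 ± 3.06 CPM after saline (SD, n = 5) and 39.5 ± 3.43 CPM after fucoidan (SD, n = 3). For Ms4a6c the share was 44.2%, all with the noncoding gene BE692007 on the opposite strand. BE692007 had 122% of the counts of Ms4a6c, and whether the counting used strand is not stated in these sources. The values of Ms4a6c are therefore uncertain.

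The promoter shown first is that of Ly6c2, which marks the subset, and the second that of Mgst1, the member with the largest excess in saline replicate 1. Each is the 250 bases before the first of 2 listed transcription starts, from RefSeq on GRCm38.p6, chr15:75111972-75112221 on the minus strand and chr6:138140277-138140526 on the plus strand. Capitals mark matches, on either strand, to GAGGAA, a core of sites for the myeloid factor PU.1, or to TTGCNNAA, a core of sites for C/EBP factors:
Ly6c2: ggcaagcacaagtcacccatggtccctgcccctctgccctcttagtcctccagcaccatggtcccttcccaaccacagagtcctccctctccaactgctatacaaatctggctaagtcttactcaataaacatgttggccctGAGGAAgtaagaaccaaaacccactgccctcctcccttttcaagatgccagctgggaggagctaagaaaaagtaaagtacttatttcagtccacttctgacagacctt
Mgst1: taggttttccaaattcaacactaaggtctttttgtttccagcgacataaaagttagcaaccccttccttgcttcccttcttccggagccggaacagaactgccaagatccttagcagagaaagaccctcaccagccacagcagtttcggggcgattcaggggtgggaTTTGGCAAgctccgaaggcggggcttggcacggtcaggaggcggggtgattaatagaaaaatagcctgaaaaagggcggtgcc
Ly6c2 has 1 match to GAGGAA and Mgst1 has 1 to TTGCNNAA in these windows. The first letters occur in 23.3% and the second in 9.56% of 32851 promoter windows of this length, so the matches are a description and not evidence of a site. Promoters of 7 members were in the table. Before the second listed start, Ly6c2 has 2 matches to GAGGAA and Mgst1 has 1. F13a1 also holds GAGGAA before 1 of its 2 listed starts.

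Levels per kilobase of gene model differ widely among the members. Lyz2, the bacteriolytic enzyme of myeloid cells, was the most abundant at 1960 ± 737 CPM per kb (SD, n = 5) after saline, and by itself made up 60.8 to 69.2% of the summed CPM of the 10 genes. Hp followed at 77.5 ± 27.2 CPM per kb. Csf1r (54.99 ± 12.2), Ly6c2 (46.9 ± 11.4), Chil3 (44.8 ± 14.2) and Fn1 (39.3 ± 9.28) came next, each within 1 SD of its neighbour in this order. F13a1, Ms4a6c and Mgst1 lay at 31.1 ± 6.87, 27.1 ± 7.52 and 11.7 ± 4.48 CPM per kb. Vcan was the lowest at 0.552 ± 0.230 CPM per kb.

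The surface antigen and the growth factor receptor come first. Ly6c2 (ENSMUSG00000022584, GRCm39 chromosome 15, 74980007 to 74983819) encodes the Ly6C antigen, an anchored surface protein. Its levels in saline replicates 1 to 5 were 183.5, 121.0, 115.4, 107.8 and 114.7 CPM, and those in fucoidan replicates 1 to 3 were 140.0, 126.4 and 99.0 CPM. Saline replicate 1 stood above every other library and the groups overlapped. The log2 fold change was -0.08 (SE 0.181, adjusted p = 0.835 by edgeR), and 0.087 without saline replicate 1.

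Csf1r, on chromosome 18, encodes the receptor for the growth factors CSF1 and IL-34 that both monocyte subsets carry. It was measured at 435.1, 312.9, 260.2, 266.6 and 312.9 CPM after saline and at 344.4, 372.0 and 266.2 CPM after fucoidan. The fucoidan values lay inside the saline range. The log2 fold change was 0.04 (SE 0.177, adjusted p = 0.905 by edgeR). Ms4a6c, of the 4-span membrane protein family on chromosome 19, went from 55.6 ± 15.4 after saline (SD, n = 5) to 45.7 ± 4.39 CPM after fucoidan (SD, n = 3) with overlap, at log2 -0.28 (SE 0.191, adjusted p = 0.377 by edgeR).

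Of 3 genes of matrix and clotting proteins, Fn1, Vcan and F13a1, 1 was called. Fn1 (ENSMUSG00000026193, GRCm39 chromosome 1, 71624679 to 71692359) had 567.95, 565.3, 459.5, 359.7 and 340.9 CPM in saline replicates 1 to 5. It had 166.7, 228.5 and 160.9 CPM in fucoidan replicates 1 to 3. The highest fucoidan library lay under the lowest saline library, and the saline libraries themselves spread by 1.67-fold. The raw counts behind these values were 6223 to 10042 after saline and 1462 to 2992 after fucoidan. The mean went from 458.7 ± 108.4 after saline (SD, n = 5) to 185.3 ± 37.5 CPM after fucoidan (SD, n = 3), at log2 -1.31 (SE 0.206, adjusted p = 0.00396 by edgeR). Without both saline replicate 1 and fucoidan replicate 3 it was at -1.13 (adjusted p = 0.0334 by edgeR), and at -1.53 in a fit blocked on replicate number. The difference in the blocked fit rests on replicates 1 to 3, without saline replicates 4 and 5, the lowest saline libraries for Fn1. In all 17 other settings run, Fn1 was called lower.

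**Figure D1:**
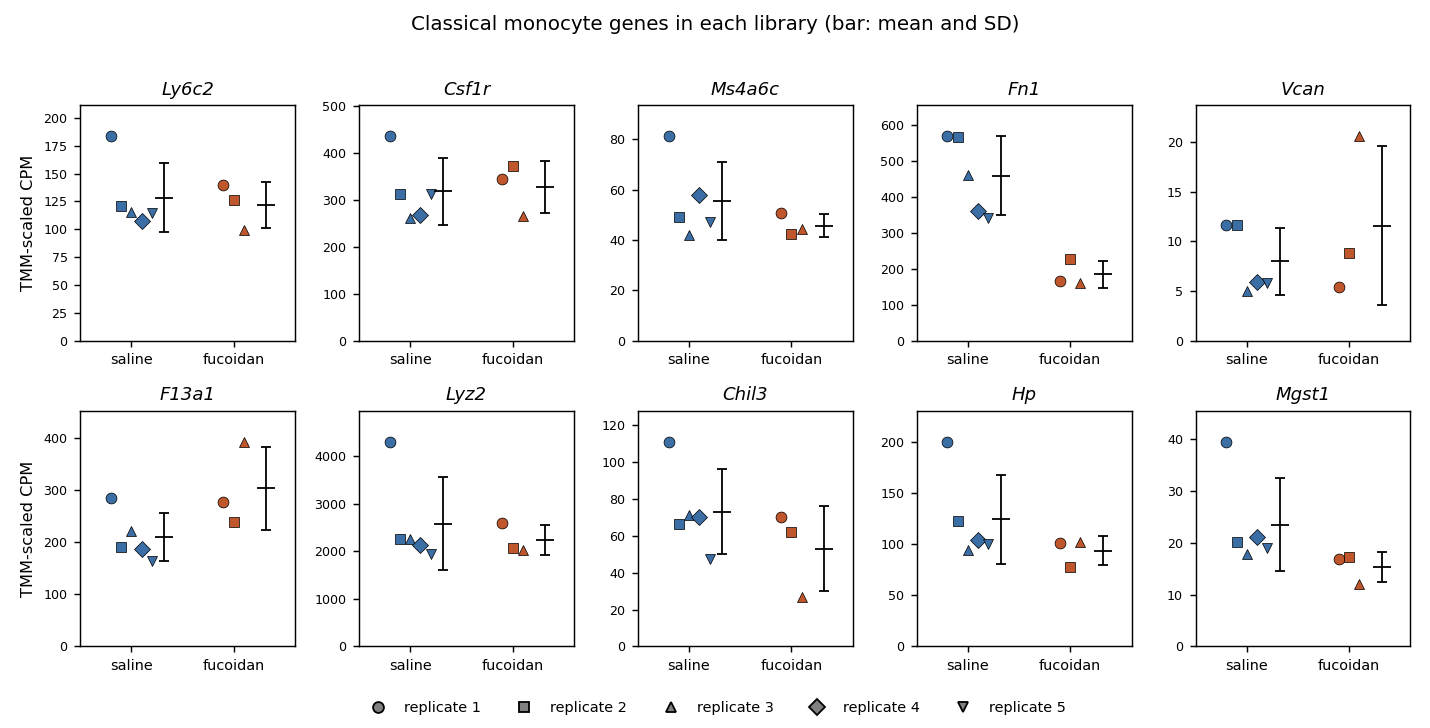
TMM-scaled CPM (vertical axes, each from 0) of the 10 genes in the 5 saline (blue) and 3 fucoidan (orange) libraries. Each symbol is a library, shaped by its replicate number, and the bar beside it is the mean with the SD. The 3 fucoidan values of Fn1, 160.9 to 228.5 CPM, lie under all saline values, and saline replicate 1 is the highest saline circle in each panel.

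Vcan and F13a1 stood on the other side of 0 without a call. Vcan, on chromosome 13, encodes versican, a large chondroitin sulphate proteoglycan. It was measured at 11.6, 11.6, 5.02, 5.90 and 5.78 CPM after saline and at 5.40, 8.78 and 20.6 CPM after fucoidan. Its highest value was that of fucoidan replicate 3. The log2 fold change of 0.51 (SE 0.415, adjusted p = 0.466 by edgeR) was -0.16 without that library.

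F13a1 (ENSMUSG00000039109, GRCm39 chromosome 13, 37051152 to 37234220) encodes the catalytic A subunit of factor XIII, the transglutaminase that links fibrin strands. Its levels were 284.3, 191.5, 220.9, 187.0 and 164.4 CPM after saline and 277.5, 238.8 and 392.4 CPM after fucoidan. Saline replicate 1 again stood apart from its group and lay between the fucoidan libraries. The log2 fold change was 0.53 (SE 0.194, adjusted p = 0.0968 by edgeR). It passed without saline replicate 1, at 0.66 (adjusted p = 0.0277 by edgeR), and stood at 0.31 without fucoidan replicate 3 (adjusted p = 0.39 by edgeR).

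Platelets hold F13a1 RNA too, and platelet genes were higher with fucoidan. All 18 tested of 19 platelet genes rose, by a median log2 of 1.56. With no filter on low counts 11 of 19 rose, and 7 of 18 without both saline replicate 1 and fucoidan replicate 3. Their summed level was 3508 to 7355 CPM after saline and 10490 to 22426 CPM after fucoidan. The highest platelet sum and the highest F13a1 value were both those of fucoidan replicate 3. In the saline group F13a1 was highest in replicate 1, whose platelet sum was 4642 CPM, and second in replicate 3, whose sum was 7355 CPM. The part of platelet RNA in the F13a1 values was not tested.

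**Figure D2:**
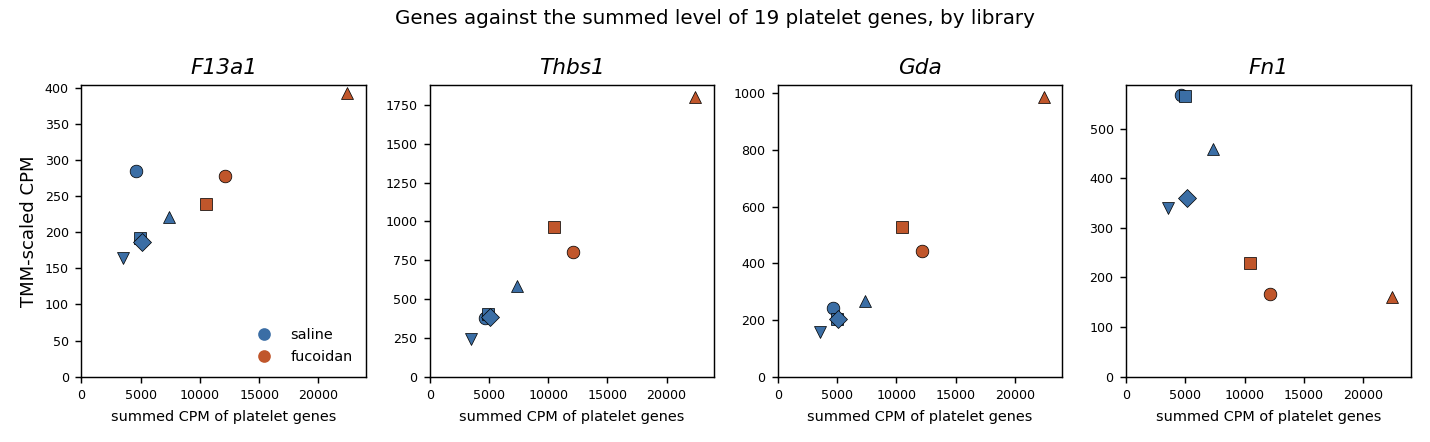
TMM-scaled CPM of F13a1, Thbs1, Gda and Fn1 (vertical axes) against the summed CPM of 19 platelet genes (horizontal axes) in the 8 libraries, blue for saline and orange for fucoidan, shaped by replicate number. F13a1, Thbs1 and Gda were highest in fucoidan replicate 3, where the platelet sum was 22426 CPM, and Fn1 was lowest there.

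The fall of Fn1 came beside changes in macrophage genes. Of 22 genes of tissue and body-cavity macrophages 15 were tested. Of these 4 fell and 2 rose, beside 4.65% and 9.11% of all tested genes. The median of the list was -0.67 on the log2 scale, and that of all tested genes was -0.04. Those that fell were Mrc1 (log2 -1.96), Retnla (-3.15), Prg4 (-2.55) and C4b (-2.72), and those that rose were Lyve1 (1.29) and Ltbp1 (1.47). They are named because they are few, after their values were seen. The rise of Lyve1 was lost in the fit blocked on replicate number (adjusted p = 0.159) and when any library but saline replicate 2 was left out (0.0556 to 0.225), and that of Ltbp1 with no filter on low counts (0.0594). Retnla, Prg4 and C4b were not called by limma-voom (adjusted p = 0.199, 0.111 and 0.205), and with no filter on low counts 1 of the list fell. DESeq2 called 7 lower and 3 higher, and a fit blocked on replicate number 7 lower and 1 higher. Without fucoidan replicate 1 or fucoidan replicate 3, 1 macrophage gene fell. Where at least 10 counts were required in every library, 8 macrophage genes were tested, of which 2 fell and 2 rose. The median of those 8 was -0.22, so the median of -0.67 leans on genes with few counts.

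In level these macrophage genes lay far under Fn1. Mrc1, the mannose receptor, ran from 4.47 to 11.3 CPM in the saline libraries, and Prg4, a lubricant proteoglycan of joints and body cavities, from 2.77 to 19.5 CPM. The saline library highest in Prg4 and C4b was replicate 3, whereas Fn1 was highest in replicates 1 and 2. The list summed to 131.4 to 215.4 CPM after saline and 181.1 to 292.0 CPM after fucoidan. Its most abundant genes after saline were Adgre1, at 53.9 CPM, and Ltbp1, at 44.4 CPM. Ltbp1 rose by log2 1.47, whereas the median of the list was -0.67, and its part in the sum was not tested. Gata6, the factor of large peritoneal macrophages, reached at most 0.496 CPM, and Timd4 at most 0.992 CPM. The part of macrophage RNA in the Fn1 result was not tested.

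Genes shared with neutrophils and other myeloid cells made up the rest. Lyz2 was measured at 4297, 2267, 2262, 2128 and 1941 CPM after saline and at 2600, 2075 and 2035 CPM after fucoidan. All libraries but saline replicate 1 lay within 1941 to 2600 CPM. The log2 fold change was -0.21 (SE 0.246, adjusted p = 0.641 by edgeR), and 0.057 without saline replicate 1. Lyz1 fell, from 7.52 ± 2.31 after saline (SD, n = 5) to 2.73 ± 1.20 CPM after fucoidan (SD, n = 3), at log2 -1.43 (SE 0.338, adjusted p = 0.0174 by edgeR), a call lost without fucoidan replicate 2 or 3 (adjusted p = 0.0696 and 0.0765).

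Hp encodes haptoglobin, the plasma protein that binds free haemoglobin. It lay at 200.3, 122.7, 94.2, 104.6 and 100.4 CPM after saline and at 101.5, 77.96 and 102.1 CPM after fucoidan, with overlap. Its log2 fold change was -0.41 (SE 0.231, adjusted p = 0.281 by edgeR), in libraries whose haemoglobin share was higher. Chil3 encodes the secreted chitinase-like protein Ym1. It ran from 47.2 to 110.9 CPM after saline and was 70.4, 61.8 and 26.96 CPM after fucoidan. Fucoidan replicate 3 was the lowest library, and the log2 fold change was -0.46 (SE 0.305, adjusted p = 0.366 by edgeR).

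Mgst1 encodes a membrane-bound glutathione transferase that detoxifies peroxides. It was measured at 39.5, 20.3, 17.9, 21.1 and 18.96 CPM after saline and at 16.9, 17.3 and 12.1 CPM after fucoidan. The groups did not overlap, though the gap between 17.3 and 17.9 CPM was narrow. The log2 fold change of -0.60 (SE 0.261, adjusted p = 0.157 by edgeR) did not pass. The groups of 2 of the 10 members, Fn1 and Mgst1, stood apart with fucoidan lower, and so did those of 11% of all tested genes. For 0 members did they stand apart with fucoidan higher, against 11.6% of all tested genes, or 22.6% in either direction.

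Of the 10 members 1 was thus called lower and 0 higher by edgeR, beside 4.65% and 9.11% of all tested genes. An unadjusted p under 0.05 was found for 3 members, namely Fn1, F13a1 and Mgst1. DESeq2 and limma-voom also called 1 lower and 0 higher. The median log2 fold change of the members was -0.24, beside -0.04 over all tested genes. It was -0.02 without saline replicate 1 and 0.03 without both saline replicate 1 and fucoidan replicate 3.

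**Figure D3:**
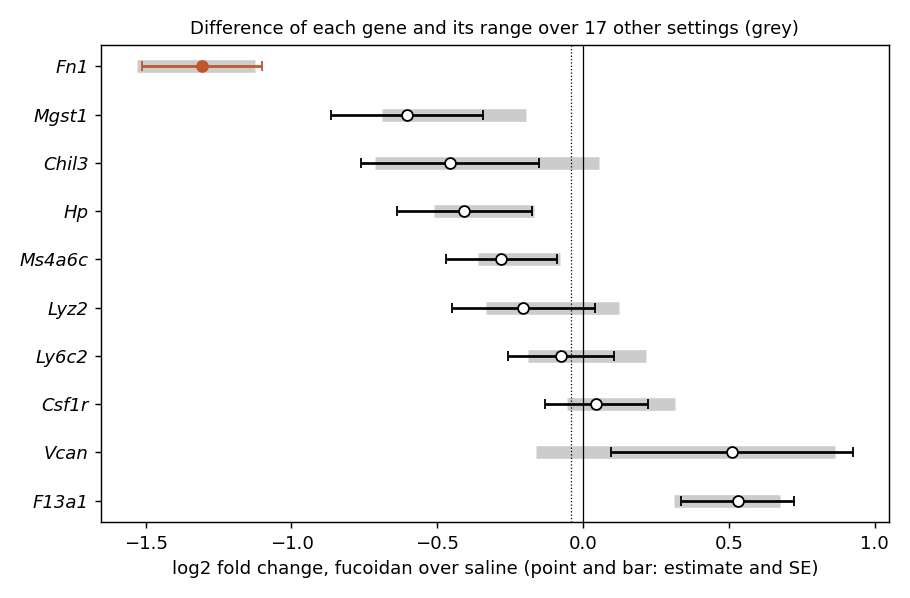
Log2 fold change of each member, fucoidan over saline (horizontal axis), as estimate and SE, filled orange where called. Grey bars span the estimates of 17 other settings, the solid line is 0 and the dotted line the median of all tested genes, -0.04. The grey bar of Fn1 runs from -1.53 to -1.13, while those of Ly6c2, Lyz2, Chil3, Csf1r and Vcan cross 0.

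A single saline library stood out for the members. Saline replicate 1 was the highest saline library for 10 of 10 members and the highest of all 8 for 8 of them, the exceptions being F13a1 and Vcan. It stood above the median of the other saline libraries by 1.39-fold for Fn1 and by 2.02-fold for Mgst1, with the other members in between. For all tested genes, saline replicate 1 was the highest saline library in 29.7% of cases. The same library was highest among saline libraries for 16 of 18 neutrophil genes and 20 of 24 other classical monocyte genes. It was so for 9 of 12 dendritic cell genes, 9 of 18 nonclassical genes and 3 of 15 macrophage genes. The median ratio to the other saline libraries was 1.82-fold for neutrophil genes, 1.66-fold for the members and 1.64-fold for dendritic cell genes. It was 1.58-fold for the other classical monocyte genes, 1.13-fold for nonclassical genes and 0.94-fold for macrophage genes. The part of neutrophil or dendritic cell RNA in the levels of that library was not tested.

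**Figure D4:**
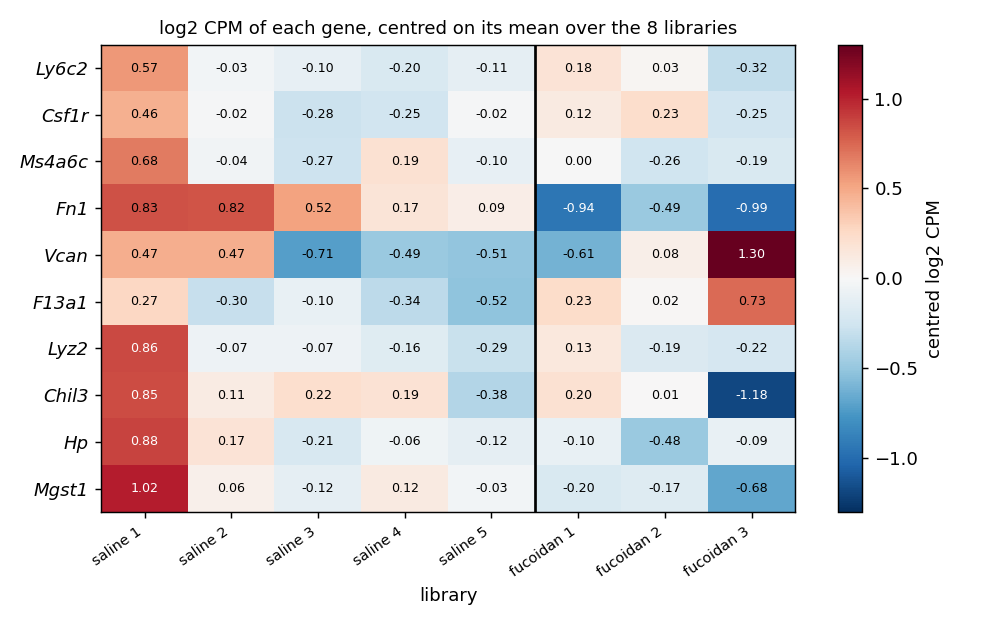
Log2 CPM of each member (rows) in each library (columns), centred on the gene's mean over the 8 libraries. Saline replicate 1 is above 0 in every row, from 0.27 for F13a1 to 1.02 for Mgst1, and fucoidan replicate 3 ranges from -1.18 for Chil3 to 1.295 for Vcan.

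Fucoidan replicate 3, the library with the most haemoglobin, was uneven among the members. It held the lowest value of all libraries for 4 members, Ly6c2, Chil3, Fn1 and Mgst1, and the highest for 2, F13a1 and Vcan. Chil3 stood at 26.96 CPM there and at 61.8 CPM or more in fucoidan replicates 1 and 2.

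Counts set against those of Csf1r in the same library do not depend on any scaling factor. For Fn1 this ratio was 1.31, 1.81, 1.77, 1.35 and 1.09 in saline replicates 1 to 5 and 0.484, 0.614 and 0.604 in fucoidan replicates 1 to 3. The mean log2 ratio was lower by 1.35 on the log2 scale with fucoidan, in 3 of 3 libraries against all saline libraries (exact two-sided permutation p = 0.0357, the smallest that 56 arrangements allow). Adjusted over the 9 ratios it was 0.161. With 56 arrangements, an adjusted p under 0.05 was out of reach unless most of the 9 ratios stood apart. The adjusted value therefore decides nothing about a single ratio. Saline replicate 1, which was highest in the level of Fn1, lay inside the saline range of the Fn1 ratio.

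The ratio of Mgst1 to Csf1r also stood apart, at 0.0606 to 0.0909 after saline and 0.0455 to 0.0490 after fucoidan (exact p = 0.0357, adjusted p = 0.161). Those of the other 7 members overlapped between the groups, with exact p of 0.107 or more. The ratio of Ly6c2 to Csf1r was the steadiest in the saline group, at 0.366 to 0.444, and 0.340 to 0.407 after fucoidan. The ratios were chosen after the values had been seen.

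**Figure D5:**
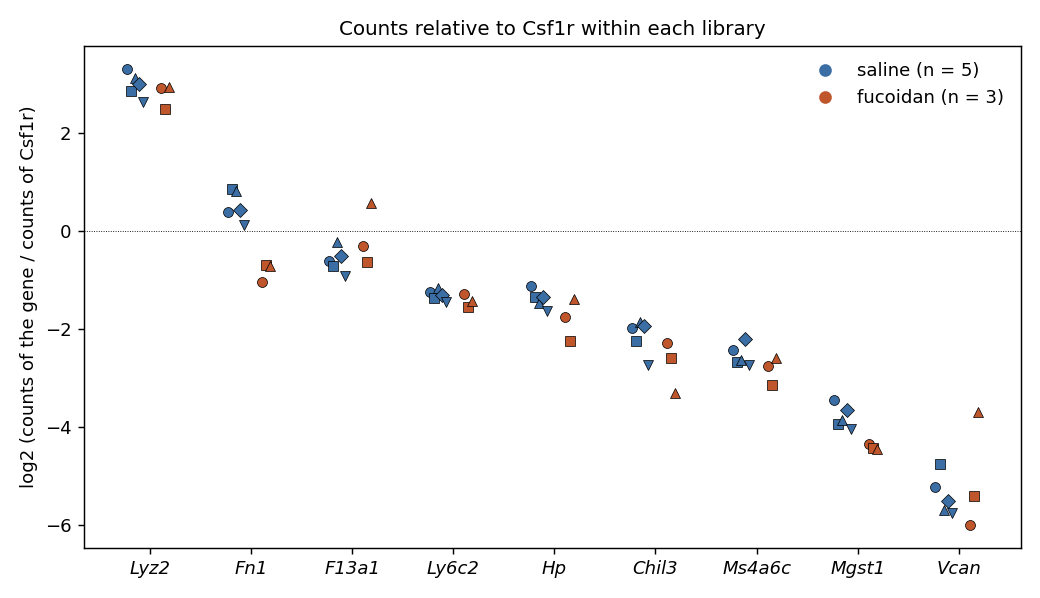
Log2 of the counts of 9 members over those of Csf1r in the same library (vertical axis), saline in blue and fucoidan in orange, shaped by replicate number. For Fn1 and Mgst1 the 3 fucoidan libraries lie under the 5 saline libraries. For the other genes the groups overlap.

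Other genes high in classical monocytes were mostly not called. Of 24 tested, 2 fell and 2 rose, beside 4.65% and 9.11% of all tested genes. The list had a median of -0.34 on the log2 scale, and of -0.07 without saline replicate 1. Ms4a4c, a relative of Ms4a6c, was among the falls and went from 93.2 ± 23.8 CPM after saline (SD, n = 5) to 59.8 ± 7.20 CPM after fucoidan (SD, n = 3), at log2 -0.64 (SE 0.183, adjusted p = 0.0406 by edgeR). Its call was lost when saline replicate 4 or any of the fucoidan libraries was left out (adjusted p = 0.0625 to 0.149). The list held 0 falls when saline replicate 4 was left out, and likewise fucoidan replicate 2 or 3. The falls numbered 4 with upper-quartile factors, with DESeq2 or with no filter on low counts, and 5 in the fit blocked on replicate number.

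The genes of that list that rose were Gda and Thbs1. Thbs1 encodes thrombospondin-1, an adhesive protein of platelet granules, and had 244.7 to 585.0 CPM after saline and 805.9, 961.0 and 1801 CPM after fucoidan. Gda encodes guanine deaminase and had 159.2 to 267.5 CPM after saline and 444.9, 527.0 and 987.7 CPM after fucoidan. Fucoidan replicate 3 was the highest library for both, as it was for all 18 tested platelet genes. Their log2 fold changes were 1.57 (SE 0.282) and 1.61 (SE 0.240). Thbs1 did not pass with no filter on low counts (adjusted p = 0.0538 by edgeR) or without both saline replicate 1 and fucoidan replicate 3 (0.0697). Without saline replicate 1, 4 genes of this list rose. Ccr2, the receptor by which classical monocytes leave the marrow, was at 110.9 to 360.5 CPM after saline and 121.3 to 154.4 CPM after fucoidan.

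Genes of the nonclassical subset were higher in part. Of 18 tested, 8 rose and 2 fell, beside 9.11% and 4.65% of all tested genes, and the list had a median of 0.43 on the log2 scale. Among the rises were Cd36 (log2 1.08, SE 0.129), a scavenger receptor of platelets as well, the integrin Itgax (0.72, SE 0.0992), Cd300e (1.09, SE 0.181) and the Fc receptor gene Fcgr4 (0.91, SE 0.157). Cx3cr1, named after its values were seen, is the fractalkine receptor that nonclassical monocytes carry most of, and had 54.0 to 134.5 CPM after saline and 63.3 to 71.4 CPM after fucoidan. Neither of the falls passed in the blocked fit, nor when any of these was left out: saline replicate 4, saline replicate 5, and fucoidan replicates 2 and 3. Itgal and Spn, which natural killer cells and T cells also express, were among the rises, and all 15 natural killer genes rose, their sum going from 512.3 to 850.0 CPM after saline to 1491 to 1742 CPM after fucoidan.

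The summed level of the 10 classical genes was 3094 to 6212 CPM after saline and 3160 to 3773 CPM after fucoidan, with overlap. That of the 18 nonclassical genes was 2395 to 2847 CPM and 2982 to 3342 CPM, without overlap. Itgal, which natural killer cells and T cells also express, had the highest mean of these 18 genes. It was measured at 559.9 to 716.1 CPM after saline and at 1004 to 1143 CPM after fucoidan. Its part in the separation of the sums was not tested. The log2 ratio of the sums was 1.25, 0.39, 0.57, 0.39 and 0.22 in saline replicates 1 to 5 and 0.18, -0.02 and 0.084 in fucoidan replicates 1 to 3. The fucoidan libraries thus lay under the saline libraries, the gap between 0.22 and 0.18 being small. With only Ly6c2, Csf1r, Ms4a6c, Fn1 and Vcan in the sum, the ratio was -1.69 to -1.03 after saline and -2.33 to -2.09 after fucoidan, and that sum holds Fn1. These ratios have Itgal in the nonclassical sum, are descriptions of RNA and carry no test.

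Transcription factors and growth factor genes of the lineage were mostly not called. Of 17 factors 0 were called by edgeR, 3 with an unadjusted p under 0.05, with a median log2 change of -0.13. DESeq2 called 1 higher and limma-voom 0, and without saline replicate 1 edgeR called 2 higher. Nr4a1, on which nonclassical monocytes depend, had the highest mean and went from 458.1 ± 124.9 after saline (SD, n = 5) to 319.0 ± 87.5 CPM after fucoidan (SD, n = 3), at log2 -0.52 (SE 0.248, adjusted p = 0.198 by edgeR). Irf8, a factor of monocyte and dendritic cell progenitors, was at 325.1 ± 29.8 and 304.1 ± 42.0 CPM. Of 10 tested genes of growth factors, chemokines and their receptors, 1 rose: Kit, the stem cell factor receptor, at 2.54 to 3.66 CPM after saline and 5.40 to 7.59 CPM after fucoidan. The most abundant of that list were Csf3r, the receptor for granulocyte colony-stimulating factor, at log2 -0.29 (SE 0.151), and Csf1r. Ccl7 was at 0 counts in all libraries.

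Relatives of the members were measured for comparison. Ly6c1 stood at log2 -0.05 (SE 0.156). Ms4a6b and Ms4a6d, neighbours of Ms4a6c, stood at 0.13 (SE 0.0901) and 0.18 (SE 0.303). Mgst2 stood at -0.31 (SE 0.169), and Mgst3 rose from 2.79 ± 0.494 after saline (SD, n = 5) to 5.75 ± 0.990 CPM after fucoidan (SD, n = 3), at log2 1.04 (SE 0.214, adjusted p = 0.00932 by edgeR), a call lost without fucoidan replicate 3 (adjusted p = 0.0523). Chil4, the nearest relative of Chil3, had 0 counts in all libraries.

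Neutrophils express several of the members. Of 18 tested neutrophil genes, 0 passed by edgeR and by limma-voom, 1 fell by DESeq2, and 1 had an unadjusted p under 0.05. Cd177, a surface glycoprotein gene named after its values were seen, was called lower in the fit blocked on replicate number (log2 -1.11, adjusted p = 0.00161 by edgeR) and with upper-quartile factors (adjusted p = 0.0369). It was called without saline replicate 5 too (adjusted p = 0.0483). Their median log2 change was -0.15, and their sum was 1048 to 2182 CPM after saline and 1084 to 1358 CPM after fucoidan, highest in saline replicate 1. Without that library 1 neutrophil gene fell and 2 rose. Of 12 dendritic cell genes 1 rose and 1 fell (median log2 0.04). Without saline replicate 1, 4 of these rose, and 0 rose by limma-voom or when 1 library was left out, be it saline replicate 2, 3 or 5 or else fucoidan replicate 2 or 3. Of 15 B cell genes 14 fell, and 7 did without fucoidan replicate 3. Of 15 T cell genes 3 rose, 5 without saline replicate 1 or 2, with no filter, with median-of-ratios factors or with TMM factors made without erythroid and platelet genes, and 7 by DESeq2. Of 18 erythroid genes 17 rose, 12 of 19 with no filter on low counts, and 7 without both saline replicate 1 and fucoidan replicate 3. Of 5 tested vessel, epithelial and liver genes 0 were called by edgeR and by limma-voom, 1 rose by DESeq2, and 2 had an unadjusted p under 0.05.

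The genes whose profile over the 8 libraries lay closest to the mean profile of the members were Adam15, Plbd1, Palm, Emilin2 and Tnfrsf21. They were found among 8716 genes with a mean of at least 10 CPM, by the root mean square difference of log2 CPM after each was centred on its mean. That difference was 0.0628 for Adam15, a membrane metalloproteinase, and 0.0783 for Plbd1, a phospholipase B-like protein. It was 0.0809, 0.0814 and 0.0913 for Palm, Emilin2 and Tnfrsf21, where the mean profile of the members itself spanned 0.888. None of the 5 was called, with log2 fold changes of -0.28 to -0.16. Emilin2 was also on the list of other classical monocyte genes.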

How the data were processed

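RNA of blood mononuclear cells was selected for poly(A) tails and sequenced in pairs of 150 bases, per the labels' protocols. The authors deposited a table of raw counts per gene. Reads were trimmed with cutadapt 4.0 and Trimmomatic 0.39 and aligned with HISAT2 2.2.1 to GRCm39, per the submitters' processing notes. For the counting tool, the annotation release and the use of strand, nothing is stated there.

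Genes were filtered by filterByExpr, scaled by TMM and tested with edgeR 4.0.16 (robust quasi-likelihood) in R 4.3.3, with Benjamini-Hochberg adjustment over 14723 genes. The step was tested on simulated data. DESeq2 1.42.0, limma-voom (limma 3.58.1), other scaling factors and filters, a replicate block and leaving out each library were the alternatives. Exact permutation tests used scipy 1.17.1. All libraries carry 1 batch label. Whether each library came from a separate mouse is stated only as a biological replicate number, so p-values measure the spread between these samples.

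Deviations from the group means correlated between libraries with the same replicate number in their titles (r = 0.177, 0.233 and 0.144), against -0.261 to 0.144 for other pairs. Every same-number r was over 0.1, but the lowest of them was no higher than the highest of the other pairs. The main fit and the exact tests did not pair the libraries. A fit blocked on replicate number was run as an alternative. No label gives a shared litter or day.

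Named were all members, up to 4 called genes of each monocyte list with the smallest p (where fewer than 2 were called, the most abundant), set relatives of the members, and the 5 genes of most similar profile. Other genes were named after their values were seen. The members and lists were chosen with earlier results of these data known. The values of 1 gene of the list of other classical monocyte genes are not reported here, though it is in the counts.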

Additional observations from a re-analysis of the deposited data

Results flagged for a closer look

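Saline replicate 1 stood far above the other 4 saline libraries for 4 of the 10 genes and for their sum, by Dixon's criterion. Its values were 183.5 CPM for Ly6c2, 4297 CPM for Lyz2, 200.3 CPM for Hp, 39.5 CPM for Mgst1 and 6212 CPM for the 10 genes together. In all, 12 quantities were examined in the saline group, and chance flags about 1 in 20. The quantities are not independent, since they come from the same libraries and Lyz2 makes up most of the sum.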

How the results depend on the processing

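Fn1 was called lower in all 17 other settings, with log2 fold changes of -1.53 to -1.13, and no alternative scaling, filter or tool changed the call of any member. The replicate block changed no call of a member. Leaving out saline replicate 1 brought F13a1 past the threshold, so the number of members higher ranged from 0 to 1 over the leave-one-out fits. Some directions reversed, in members that were not called in any of these settings. Csf1r stood at -0.000816 with upper-quartile factors, -0.018 with the replicate block, -0.012 and -0.013 without saline replicates 3 and 4, and -0.056 without fucoidan replicate 2. Ly6c2 stood at 0.087 without saline replicate 1 and 0.064 without fucoidan replicate 3, Lyz2 at 0.057 without saline replicate 1, and Vcan at -0.16 without fucoidan replicate 3. Without both saline replicate 1 and fucoidan replicate 3, a setting chosen after seeing the data, Ly6c2 stood at 0.22, Chil3 at 0.056, Lyz2 at 0.12 and Vcan at -0.000046. Without fucoidan replicate 1, Ly6c2, Chil3, Vcan and Lyz2 stood at the other end of their leave-one-out ranges, at -0.19, -0.71, 0.86 and -0.33, and Csf1r was at 0.32 without saline replicate 1 and fucoidan replicate 3. Over all tested genes, 439 were lower with the replicate block, beside 684 without it. Leaving out each library gave 182 to 856 lower and 746 to 1368 higher, and leaving out both of the above gave 299 and 686. The cause of these shifts was not tested. Counts limit Vcan most, with 78 to 206 per library.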
